A study of Mus musculus with 6 samples.

Results

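Krt6a, Krt6b, Krt16, Krt17 and Krt75 are the stress and companion layer keratins of mouse skin. They were chosen by symbol, and all 5 had a row among the 14484 genes of the count table. The skin came from animals with 1 Braf CA allele and Cre, on a C57BL/6-129J background. The labels name the mutant samples nevi (benign clusters of melanocytes) and the others wild type. The 3 ATR mD/mD samples carried the genotype ATR fl/fl, in which part of the kinase domain of Atr is deleted in cells where Cre acts, with Braf CA/+ and Cre +. The 3 ATR WT samples were ATR +/+ with the same Braf CA/+ and Cre +, so both groups carried the Braf allele and Cre. The labels give neither age nor the promoter that drives Cre, and do not say that each sample is another animal. Each p-value therefore reflects how far these libraries differ, which may be partly technical.

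Keratins form the intermediate filaments of epithelial cells, and each filament pairs an acidic type I keratin with a basic type II keratin. Krt6a and Krt6b (type II) pair with Krt16 and Krt17 (type I). These 4 are present in parts of the hair follicle, in nail and in oral epithelium, and they are known to be switched on in the epidermis between follicles after wounding and in inflamed or hyperproliferative skin. Krt75 (type II) is known as a keratin of the companion layer, a sheet of cells between the inner and outer root sheaths of the growing follicle.

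Gene counts summed to between 34723600 and 46847751 per library. Atr itself stood at 20.8, 22.2 and 24.8 CPM (counts scaled to library size) in ATR mD/mD 1, 2 and 3 and at 17.7, 24.5 and 24.2 CPM in ATR WT 1, 2 and 3. A count over the whole gene includes exons outside the deletion and any cells where Cre did not act, so it does not check the deletion. Of the 9 skin markers listed, 8 were measured, none with a library at 0. The libraries stood apart in hair genes. The hair keratin level, taken here as the mean log2 CPM of 21 hair shaft and inner root sheath keratins, was -1.01, 1.70 and 7.36 in ATR mD/mD 1, 2 and 3 and 1.40, 7.14 and 7.475 in ATR WT 1, 2 and 3. It was thus high in ATR mD/mD 3, ATR WT 2 and ATR WT 3 and low in the other 3 libraries, across both genotypes. Counts of Xist, made from an inactive X chromosome, were 18050, 40 and 23 in ATR mD/mD 1, 2 and 3 and 37, 23005 and 29207 in ATR WT 1, 2 and 3, and its part in the results below was not tested. In bulk skin, fewer cells of a type and less RNA per cell cannot be told apart.

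The type II genes lie on chromosome 15 and the type I genes on chromosome 11, all on the minus strand (mm10, GENCODE M21). Krt6a spans 101689910 to 101694307 and Krt6b spans 101676023 to 101680287, side by side on chromosome 15, and Krt75 spans 101563345 to 101573904. Krt16 spans 100246091 to 100248902 and Krt17 spans 100256217 to 100261029 on chromosome 11. Each type II gene has 9 exons and 1 annotated coding transcript, and each type I gene has 8 exons and 1 such transcript.

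Krt6a and Krt6b are so alike that part of their reads cannot be assigned. Their coding sequences are 97.8% identical over 1659 aligned bases, with 37 differing bases and a longest identical run of 280 bases. The next pair of sequences (100 coding bases of each gene, coding bases 34 to 133, from the GENCODE M21 transcripts at chr15:101694116-101694215 for Krt6a and chr15:101680091-101680190 for Krt6b) is the first such stretch within an exon, on the minus strand of mm10, that holds 0 differences, and it is shown because a read from within it cannot be told to come from one gene or the other.
Krt6a: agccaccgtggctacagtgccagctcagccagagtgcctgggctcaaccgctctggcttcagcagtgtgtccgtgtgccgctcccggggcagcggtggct
Krt6b: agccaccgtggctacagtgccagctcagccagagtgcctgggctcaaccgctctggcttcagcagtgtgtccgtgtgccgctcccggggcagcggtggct
The second pair (coding bases 324 to 423, chr15:101693826-101693925 for Krt6a and chr15:101679801-101679900 for Krt6b, minus strand, mm10) is the first 100-base stretch with the most differences, and its 7 differing bases, in capitals, are what tells a read of one gene from a read of the other.
Krt6a: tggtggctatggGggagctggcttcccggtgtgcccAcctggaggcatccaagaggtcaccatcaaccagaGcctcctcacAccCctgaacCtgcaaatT
Krt6b: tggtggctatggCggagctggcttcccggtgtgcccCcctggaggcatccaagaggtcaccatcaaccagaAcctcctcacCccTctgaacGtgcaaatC

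Over the whole transcripts, 62% of the 50-base windows of Krt6a and 50.1% of those of Krt6b also occurred in another annotated gene. With 100-base windows the shares were 47.5% and 30.6%. The other gene was mostly the sister gene, which held 43.6% of the 50-base windows of Krt6a and 44.5% of those of Krt6b. Krt16 shared 37.6% of its 50-base windows, with Krt14 and the gene model Gm11597 and, in 6 windows, with Krt17. Krt17 and Krt75 shared 3.99% and 2.49%. Reads aligned to more than 1 place stood in a row of their own, with 2.44% to 3.28% of what each library listed. The counts of Krt6a, Krt6b and Krt16 are therefore uncertain, and so is the split between Krt6a and Krt6b. Krt6a also overlaps the gene models Gm44342 and Gm49428, Krt6b overlaps Gm44383 and Krt75 overlaps Gm44460, and libraries that do not mark strand cannot separate overlapping genes.

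**Figure D1:**
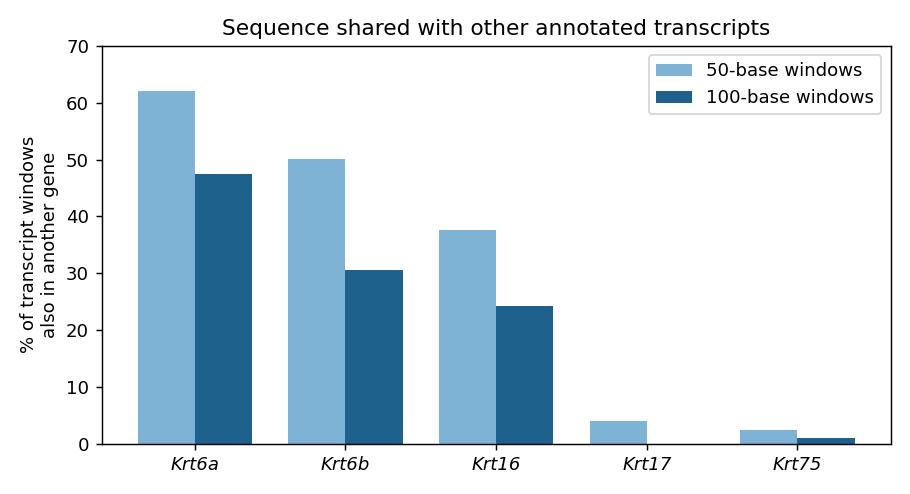
Share of each member's 50-base (light) and 100-base (dark) transcript windows that also occur in another annotated gene, in percent. Krt6a and Krt6b shared the most, at 62% and 50.1% of 50-base windows, and Krt17 and Krt75 the least, at 3.99% and 2.49%.

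Krt75, the companion layer keratin, divided the libraries sharply. It stood at 6.23, 11.2 and 287.2 CPM in ATR mD/mD 1, 2 and 3 and at 14.45, 241.6 and 319 CPM in ATR WT 1, 2 and 3. ATR mD/mD 3, ATR WT 2 and ATR WT 3 were high and within 1.32-fold of each other, the other 3 libraries were low, and the genotypes overlapped. The mean was 101.5 ± 161 CPM in ATR mD/mD and 191.7 ± 158 CPM in ATR WT (SD, n = 3 each). The log2 fold change was -0.92 (SE 1.58; by edgeR's quasi-likelihood test, adjusted p = 0.9999), with an interval of 2 SE on either side from -4.08 to 2.25.

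The promoter of Krt75 is shown because this member had the widest fold gap between the lowest of the 3 high libraries and the highest of the 3 low ones, and it was the 1 member of the 5 with an entry in the RefSeq promoter table. The window holds 250 bases before and 50 after the start (chr15:101573855-101574154, minus strand, mm10), and capitals mark the matches of the searched motifs.
Krt75: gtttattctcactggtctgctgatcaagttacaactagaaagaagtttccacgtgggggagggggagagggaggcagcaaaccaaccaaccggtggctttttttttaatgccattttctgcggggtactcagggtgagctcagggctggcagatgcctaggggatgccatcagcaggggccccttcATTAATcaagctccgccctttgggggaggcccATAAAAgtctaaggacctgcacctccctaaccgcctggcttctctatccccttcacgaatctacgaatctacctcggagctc
Both strands were searched. The TATA-like motif ATAAAA matched once, from -32 relative to the start, and 18.5% of 32851 promoter windows hold it. The homeobox core ATTAAT matched once, from -64, and 4.75% of windows hold it. The other searched motifs had 0 matches in this window, which says nothing of the factors. They were the TATA box TATAAA, held by 13.6% of all windows, the AP-1 motif TGANTCA, held by 7.81%, and the GLI motif GACCACCCA, held by 0.253%. The TCF/LEF motif was searched as CTTTGAT, held by 3.73% of windows, and as CTTTGTT, held by 5.85%. The antioxidant response element was searched as TGACNNNGC, held by 12.4%. Both matches stand apart without overlap, and each only describes the letters.

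Krt6a, per kilobase the more abundant Krt6 gene, followed the same division but less evenly. It stood at 32.2, 44.4 and 545.8 CPM in ATR mD/mD 1, 2 and 3 and at 37.5, 217.8 and 717 CPM in ATR WT 1, 2 and 3. ATR WT 3 and ATR mD/mD 3 were highest, ATR WT 2 lay between them and the 3 low libraries, and the genotypes overlapped. The mean was 207.4 ± 293 CPM in ATR mD/mD and 324.1 ± 352 CPM in ATR WT (SD, n = 3 each). The log2 fold change was -0.64 (SE 1.345; by edgeR's quasi-likelihood test, adjusted p = 0.9999; 2 SE interval -3.33 to 2.05). Without ATR WT 3 it turned to 0.69.

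Krt6b, the sister gene, was scarce and held the one single-library drop among the members. It had 66, 161 and 1412 counts in ATR mD/mD 1, 2 and 3, or 1.89, 4.09 and 40.4 CPM. It had 6, 431 and 1273 counts in ATR WT 1, 2 and 3, or 0.165, 9.91 and 26.1 CPM. ATR WT 1 was lowest by far, although Krt6a in that library lay between the values of ATR mD/mD 1 and ATR mD/mD 2. Against the 6 counts of ATR WT 1, Krt6b was 11.4-fold higher in ATR mD/mD 1 (95% exact counting interval 4.97 to 32.2) and 24.7-fold higher in ATR mD/mD 2 (11.1 to 68.3), 2 libraries that also had a low hair keratin level. These intervals cover counting error only, and PCR copies are not independent molecules. On the log2 CPM scale ATR WT 1 lay 3.17 below the next lowest library, and 28 of 14484 genes had a gap at the low end at least that wide, 1 of which was lowest in ATR WT 1, namely Krt6b. The mean was 15.5 ± 21.6 CPM in ATR mD/mD and 12.04 ± 13.1 CPM in ATR WT (SD, n = 3 each), and the genotypes overlapped. The log2 fold change between genotypes was 0.36 (SE 1.56; by edgeR's quasi-likelihood test, adjusted p = 0.9999; 2 SE interval -2.77 to 3.485). Leaving out ATR WT 1 gave -0.21, and leaving out ATR mD/mD 3 gave -2.01.

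Krt16, the type I partner of Krt6, was led by ATR WT 3. It stood at 15.9, 10.97 and 153.2 CPM in ATR mD/mD 1, 2 and 3 and at 20.9, 47.9 and 245.2 CPM in ATR WT 1, 2 and 3. ATR WT 3 and ATR mD/mD 3 were high, while ATR WT 2 lay closer to the low libraries than to ATR WT 3, and the genotypes overlapped. The mean was 60.0 ± 80.7 CPM in ATR mD/mD and 104.7 ± 122 CPM in ATR WT (SD, n = 3 each). The log2 fold change was -0.80 (SE 1.25; by edgeR's quasi-likelihood test, adjusted p = 0.9999; 2 SE interval -3.31 to 1.70), and it turned to 0.79 without ATR WT 3.

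Krt17, a type I keratin that the outer root sheath also makes without stress, was per kilobase the most abundant member, and it varied least across libraries. It stood at 1065, 963.3 and 3670 CPM in ATR mD/mD 1, 2 and 3 and at 1387, 1811 and 2599 CPM in ATR WT 1, 2 and 3. ATR mD/mD 3 was highest, and the range from lowest to highest library was 3.81-fold. The mean was 1899 ± 1534 CPM in ATR mD/mD and 1932 ± 615 CPM in ATR WT (SD, n = 3 each), which is -0.02 as a log2 fold change (SE 0.571; by edgeR's quasi-likelihood test, adjusted p = 0.9999; 2 SE interval -1.17 to 1.12). The sign turned in 3 of the 6 settings with 1 library left out: the value was 0.26 without ATR mD/mD 1, 0.29 without ATR mD/mD 2 and 0.24 without ATR WT 3.

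**Figure D2:**
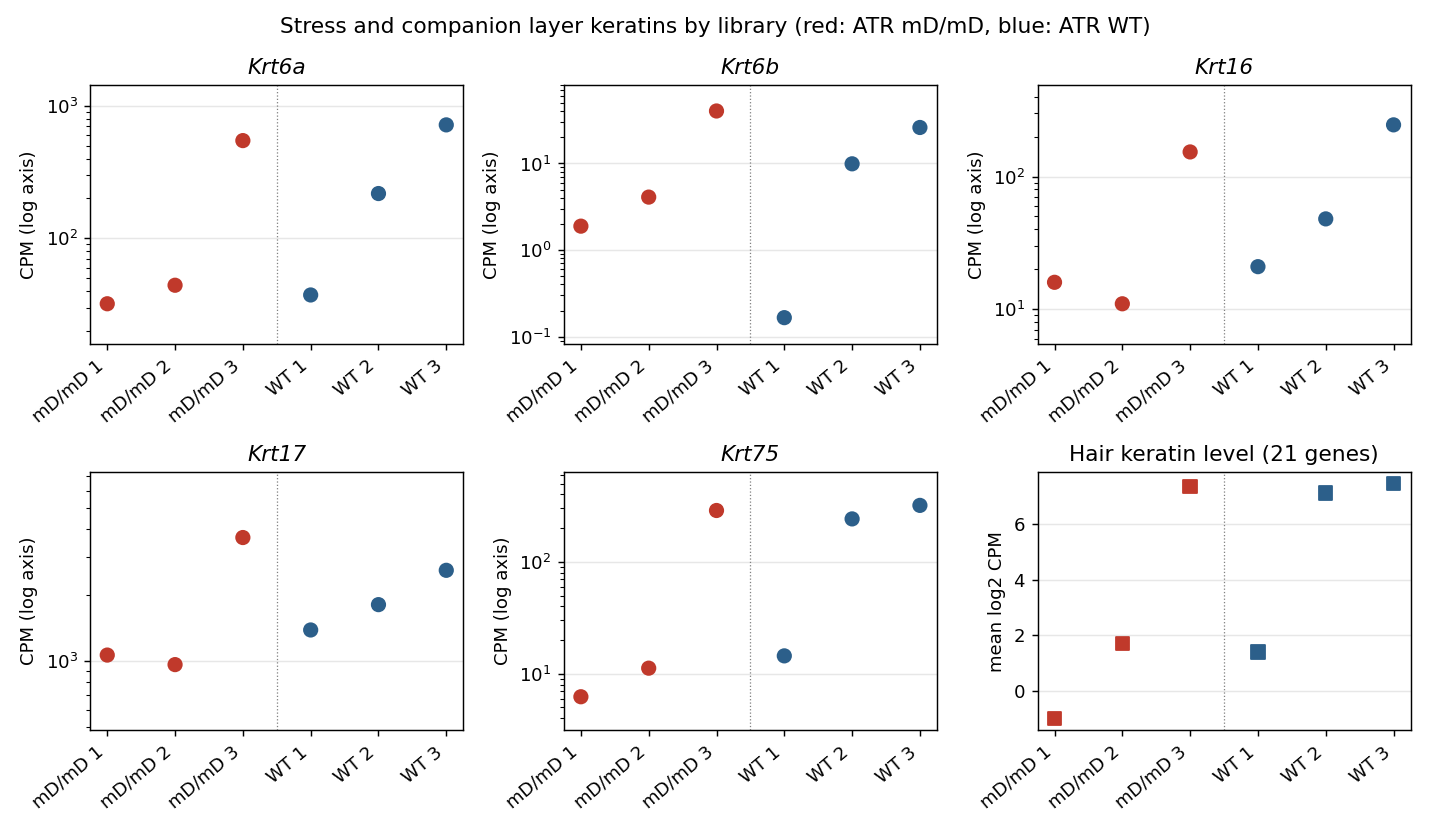
CPM of each member in the 3 ATR mD/mD (red) and 3 ATR WT (blue) libraries on log axes, with the hair keratin level (mean log2 CPM of 21 genes) in the last panel. ATR mD/mD 3, ATR WT 2 and ATR WT 3 lie above the other 3 libraries in all 5 members, and Krt6b drops to 0.165 CPM in ATR WT 1.

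Set against genotype, 0 of the 5 members passed an adjusted p under 0.05, where 0.0483% of all genes did, all of those lower in ATR mD/mD. At an unadjusted p under 0.05, 0 of the 5 passed in edgeR against 1.66% of all genes, and DESeq2 and limma-voom also called 0 members. The genotypes separated in 0 of the 5, against 4.84% of all genes (2.26% with ATR mD/mD above and 2.58% with ATR mD/mD below). Of the 5 log2 fold changes 4 were negative, where 48% of all genes were, with a median of -0.64 beside 0.007 over all genes. Hair keratin level was unequal between the groups, with 1 ATR mD/mD and 2 ATR WT libraries high, and its part in that median was not tested. The intervals of 2 SE allow differences of several-fold in either direction for Krt6a, Krt6b, Krt16 and Krt75, so the data do not show that these genes were equal between genotypes. In the authors' deposited table the log2 fold changes of Krt6a, Krt6b, Krt16, Krt17 and Krt75 were -0.64, 0.36, -0.80, -0.02 and -0.92, each with an adjusted p of 1.

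With the hair keratin level as a covariate, the log2 fold change was 0.39 (SE 0.488) for Krt6a, 0.25 (SE 0.311) for Krt17, 0.00078 (SE 0.699) for Krt16 and -0.04 (SE 0.279) for Krt75, none past the threshold (adjusted p 0.9905 to 0.9999, edgeR quasi-likelihood). Krt6b had 2.10 (SE 0.75), with an unadjusted p of 0.028 and an adjusted p of 0.9835 (edgeR quasi-likelihood). Without ATR WT 1 as well, Krt6b had 1.16 (SE 0.436, adjusted p = 0.5743). The covariate was measured in the same 6 libraries.

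**Figure D3:**
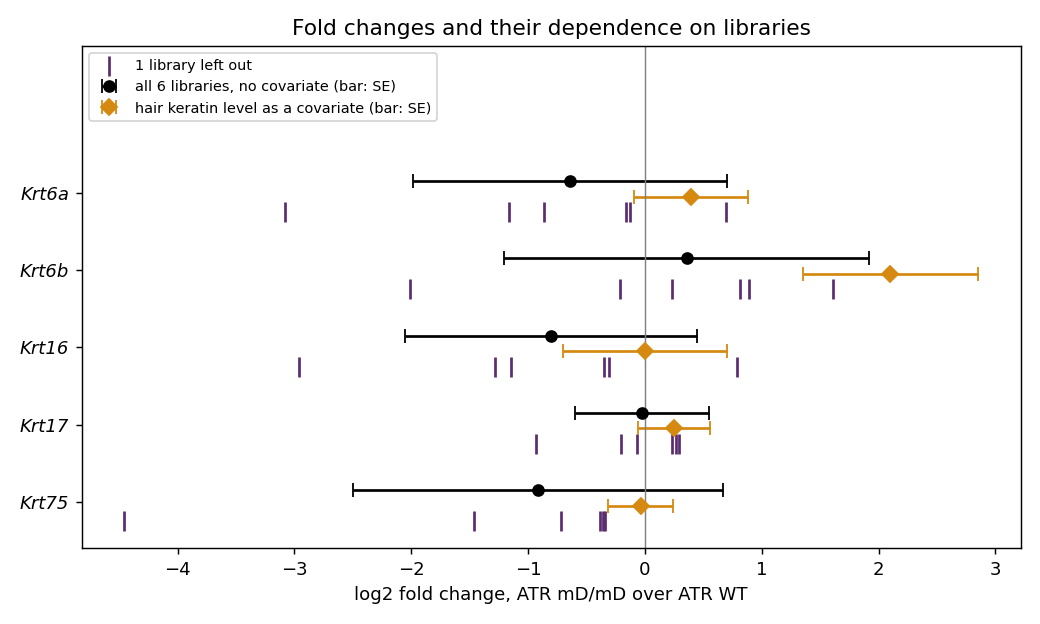
Log2 fold change of ATR mD/mD over ATR WT for each member with all libraries (black, bar is the SE), with the hair keratin level as a covariate (orange, bar is the SE), and with each library left out in turn (purple ticks). Among the values with 1 library left out, the setting without ATR mD/mD 3 gives the lowest of every member, from -0.93 for Krt17 to -4.455 for Krt75.

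Set against the hair keratin level, all 5 members were higher in each of the 3 libraries of high hair keratin level than in each of the other 3, an order that 19.6% of all genes showed. The opposite order, shown by 17.1% of all genes, held for 0 members. From the highest of the low libraries to the lowest of the high ones, Krt75 went from 14.45 to 241.6 CPM. Krt6a went from 44.4 to 217.8, Krt16 from 20.9 to 47.9, Krt6b from 4.09 to 9.91 and Krt17 from 1387 to 1811 CPM. The whole range over the 6 libraries also differed widely among members, and that of Krt6b reached down to its 6 counts in ATR WT 1. The highest library exceeded the lowest by 22.3-fold for Krt6a, 244.3-fold for Krt6b, 22.4-fold for Krt16 and 51.2-fold for Krt75, and 4 of the 5 members were past 10-fold, against 2.13% of all genes. No test was made, because the libraries were ordered by a level measured in them. Skeletal muscle markers ran the other way: all 7 were lower in each of the 3 high libraries than in each other library. Their summed level ranged from 7673 to 22220 CPM in ATR mD/mD and from 7864 to 35680 CPM in ATR WT, with no marker at 0. Their part in the members' levels was not tested.

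The 3 high libraries were not alike. Krt16 was 5.12-fold higher in ATR WT 3 than in ATR WT 2, a step that 0.069% of genes matched or exceeded, and Krt6a was 3.29-fold higher (0.193% of genes) and Krt6b 2.63-fold higher (0.442% of genes). Krt17 and Krt75 differed by 1.435-fold and 1.32-fold between the same libraries, which 5.25% and 8.72% of genes matched. Krt16 was also 3.20-fold higher in ATR mD/mD 3 than in ATR WT 2, and Krt6a 2.51-fold (0.49% of genes) and Krt6b 4.08-fold higher. Krt17 was 2.03-fold higher in that comparison, which 1.01% of genes matched, and Krt75 1.19-fold, which 22.9% matched. ATR WT 2 thus had near as much Krt75 as ATR mD/mD 3 and ATR WT 3 but less Krt6a, Krt6b and Krt16, and it also had less Krt17. Each of these is a comparison of single libraries with no replicate check.

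By the rule of a library at least 1 log2 unit from the median of the other 5, all 5 members had such a library, against 16.5% of genes, and at 2 log2 units 4 members had one, against 3.47% of genes. For Krt6a, Krt6b, Krt16 and Krt75 all 6 libraries met it, 3 of them above and 3 below, so the rule does not single out a library for these genes. For Krt17 the 1 such library was ATR mD/mD 3. The stricter rule of a gap of 1 log2 unit to the nearest other library was chosen after the data were examined. It left Krt6b in ATR WT 1 alone, at the low end, where 1.93% of genes met it, and no member at the high end, where 1.05% did.

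Per kilobase of exon, the order of the members was almost the same in every library. Krt17 was highest, Krt6a next and Krt6b lowest in 6 of 6 libraries. Between them, Krt16 was above Krt75 in 5 libraries and Krt75 above Krt16 in 1, ATR WT 2. Mean levels in ATR mD/mD were 1225 ± 989 CPM per kb for Krt17, 85.8 ± 121 for Krt6a, 38.4 ± 51.6 for Krt16, 31.1 ± 49.2 for Krt75 and 6.92 ± 9.68 for Krt6b (SD, n = 3). In ATR WT they were 1246 ± 396, 134.0 ± 146, 66.9 ± 78.2, 58.7 ± 48.5 and 5.39 ± 5.85 CPM per kb in the same order (SD, n = 3). The means of Krt6a, Krt16 and Krt75 lay within their spread between libraries, although within each library Krt6a was above both of the others. The 5 members together made up 5.02%, 4.005% and 14.1% of the counts of 48 keratin genes in ATR mD/mD 1, 2 and 3, and 5.47%, 8.61% and 12.3% in ATR WT 1, 2 and 3. Each 95% Wilson interval is within 0.1 points of its share, and most of the share was Krt17.

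Ratios between members, used here to set libraries against each other, showed 2 of 10 pairs whose genotypes did not overlap, where 5.16% of all gene pairs and 0.822% of the pairs of Krt6b with any other gene did not. Both of those pairs include Krt6b and so share its value in ATR WT 1, and the ratios were looked at after the values were known. Krt6b reached 5.87, 9.22 and 7.405 CPM for every 100 CPM of Krt6a in ATR mD/mD 1, 2 and 3, and 0.44, 4.55 and 3.63 in ATR WT 1, 2 and 3. Every ATR mD/mD library was above every ATR WT library, by 1.93 in mean log2 ratio, and ATR WT 1, with its 6 counts of Krt6b, stood far below the rest. Without ATR WT 1 the difference was 0.86. The exact two-sided permutation p was 0.1, the smallest that 3 against 3 samples allow, and the adjusted value over 10 pairs cannot be lower. Krt6b over Krt75 separated in the same direction, with 2.89 in mean log2 ratio (2.11 without ATR WT 1) and the same exact permutation p of 0.1. Reads shared by Krt6a and Krt6b bear on the first ratio, and their part in it was not tested. Krt16 over Krt6a overlapped between genotypes (exact permutation p = 0.8).

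**Figure D4:**
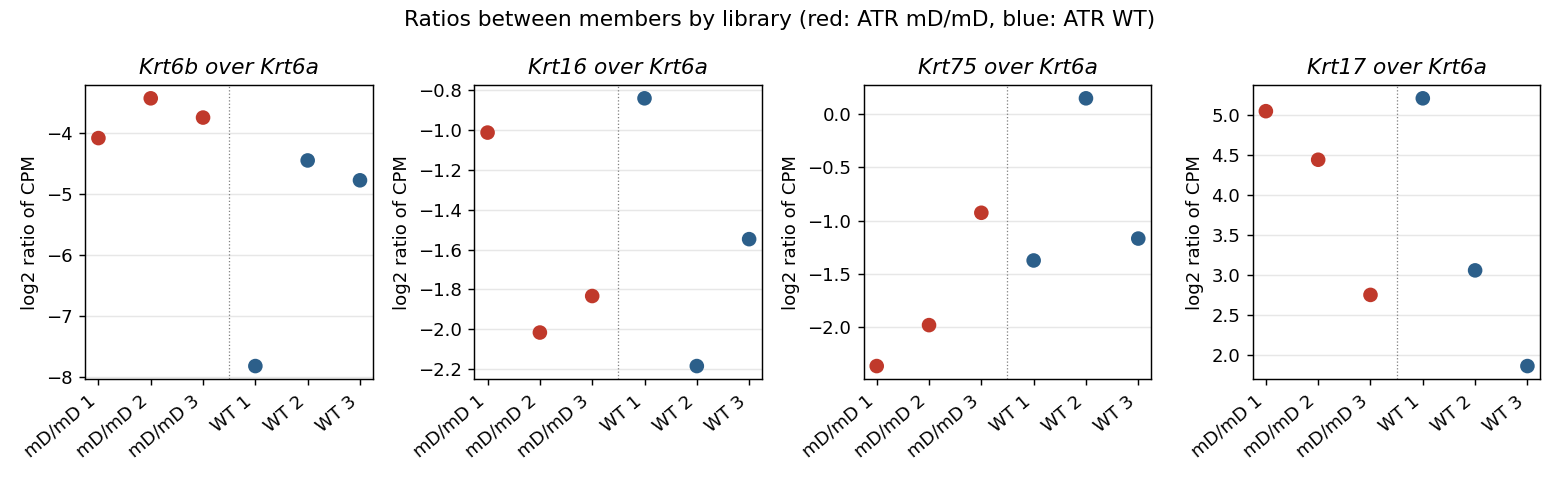
Log2 ratio of CPM of Krt6b, Krt16, Krt75 and Krt17 over Krt6a in the 3 ATR mD/mD (red) and 3 ATR WT (blue) libraries. Krt6b over Krt6a is higher in all 3 ATR mD/mD libraries, and ATR WT 1 is the low point at 0.44 CPM of Krt6b per 100 CPM of Krt6a.

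Other genes were ranked by likeness, the root mean square difference of log2 CPM profiles over the 6 libraries after each gene was centred on its mean, among 12987 genes. For Krt75 the nearest were Padi1, a protein deiminase (0.22), Lrrc75b (0.27) and Krt82, a hair cuticle keratin (0.35), against a median of 2.425 over all those genes. For Krt6a they were Samd5 (0.23), Capn12, a calpain family member (0.23), and Cmah, a sialic acid hydroxylase (0.40), against a median of 1.85. For Krt16 they were Atp12a, a proton-potassium pump subunit (0.45), Samd5 (0.48) and Krt42, a type I keratin (0.51), with a median of 1.67. For Krt17 they were Prr7 (0.11), Cxcl14, a chemokine (0.12), and Ahcy, a hydrolase of the methionine cycle (0.14), with a median of 0.71. Krt6b had no near match: the closest were Dnah7b (1.19), Csdc2 (1.22) and Krt36, a hair keratin (1.22). Among the members themselves, Krt6a and Krt16 were closest (0.50) and Krt6b and Krt17 farthest (2.095).

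The keratins of the epidermis between follicles did not share the wide range of Krt6a, Krt6b, Krt16 and Krt75. Krt17 itself ranged over only 3.81-fold. Krt5, the type II keratin of basal cells, stood at 4865 ± 476 CPM in ATR mD/mD and 4476 ± 873 CPM in ATR WT, and Krt10, a type I keratin of the layers above, at 4598 ± 1836 CPM in ATR mD/mD and 4120 ± 1881 CPM in ATR WT (SD, n = 3 each). Of the 6 keratins of this list 0 passed the test, with log2 fold changes from -0.07 to 0.22 and a median of 0.14. None of the 6 was higher in each of the 3 libraries of high hair keratin level, beside 19.6% of all genes. In each of those libraries 3 were lower, beside 17.1% of all genes. Of the 18 genes of the outer root sheath, companion layer and infundibulum list, 7 were higher in each of those 3 libraries, beside 19.6% of all genes. In the genotype test 0 of the 18 passed, beside 0.0483% of all genes, and the median log2 fold change was -0.07. Krt15, a keratin of basal and stem cells of the follicle, had 0.32 (SE 0.316), and the stem cell receptor gene Lgr5 had -0.46 (SE 0.554), neither past the threshold.

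Genes of activated keratinocytes and wounds ran beside the stress keratins in part. Of 22 measured of 40 listed, 13 were higher in each of the 3 libraries of high hair keratin level, beside 19.6% of all genes. In the genotype test 0 of the 22 passed, beside 0.0483% of all genes (median log2 fold change -0.21). Gjb2, a gap junction gene, stood at 6.32, 11.8 and 574.8 CPM in ATR mD/mD 1, 2 and 3 and at 14.2, 353.4 and 435.9 CPM in ATR WT 1, 2 and 3. Sprr1a, a cornified envelope precursor, stood at 136.7, 85.8 and 782.9 CPM in ATR mD/mD 1, 2 and 3 and at 166.9, 574.8 and 810.7 CPM in ATR WT 1, 2 and 3. Both were high in the same 3 libraries, and the genotypes overlapped. S100a8 and S100a9, which encode a calcium-binding pair of neutrophils and stressed keratinocytes, were highest in ATR WT 3. That library also led Krt6a, Krt16 and Krt75, and 3130 of all 14484 genes were highest in it. S100a9 stood at 4.29, 3.96 and 4.92 CPM in ATR mD/mD 1, 2 and 3 and at 3.06, 4.60 and 12.3 CPM in ATR WT 1, 2 and 3. The 4 measured of 11 listed neutrophil markers, which include both genes, summed to between 14.1 and 21.6 CPM in ATR mD/mD and between 11.2 and 37.7 CPM in ATR WT, with none at 0, and their part was not tested.

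**Figure D5:**
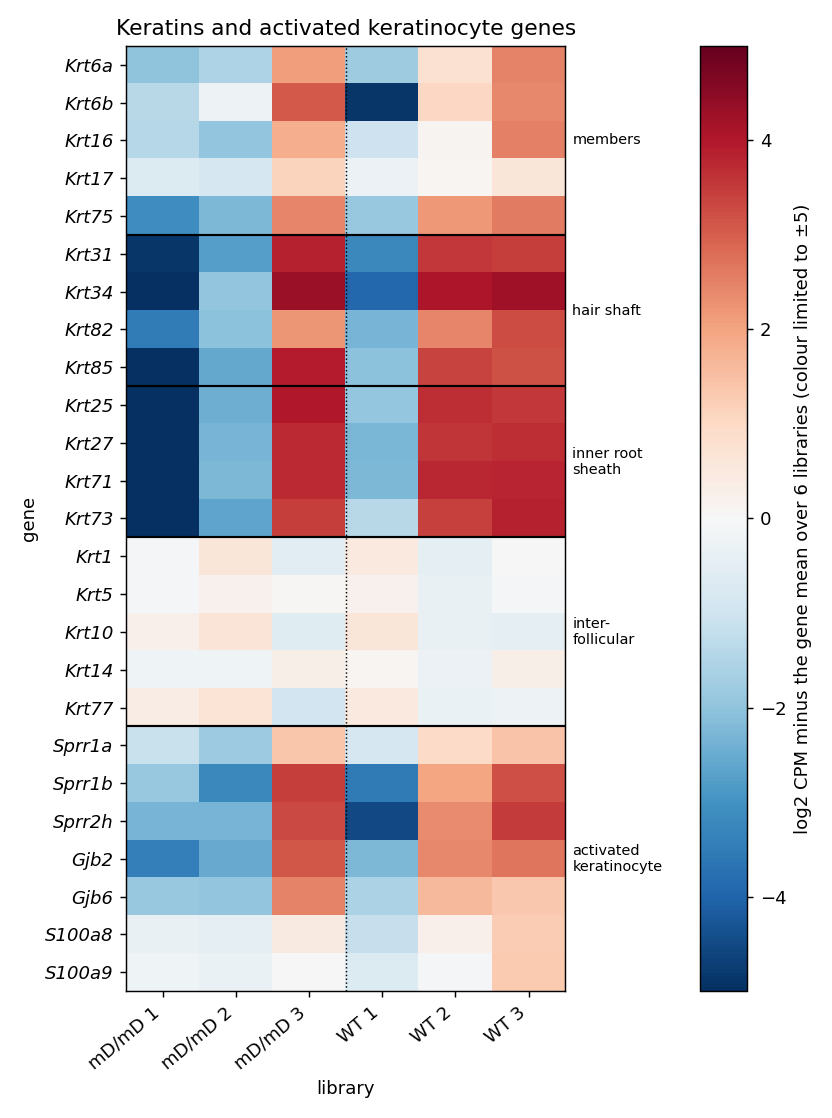
Log2 CPM minus the gene's mean over the 6 libraries, colours limited to 5 on either side, for the 5 members and for example genes of 4 lists, with ATR mD/mD libraries to the left of ATR WT. The activated keratinocyte genes shown are all among the 13 of 22 measured that were higher in each of the 3 libraries of high hair keratin level. They were picked by hand and do not stand for the whole list. Krt75 runs with the hair shaft and inner root sheath keratins, while Krt5 and Krt14 stay near their means in every library. Krt10 is lower in each of the 3 libraries of high hair keratin level.

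Upstream signals known to act on these keratins held no gene past the threshold either, which 0.0483% of all genes passed. Of 10 genes for the EGF receptor family and its ligands, a pathway known to raise Krt6 and Krt16, 0 passed (median log2 fold change -0.23). Egfr had -0.14 (SE 0.288) and Hbegf -0.78 (SE 0.473). Epgn, an epithelial ligand of the receptor, stood at 2.06, 2.87 and 4.72 CPM in ATR mD/mD 1, 2 and 3 and at 12.7, 3.27 and 4.42 CPM in ATR WT 1, 2 and 3. It was highest in ATR WT 1, the library with the least Krt6b. Of 23 genes for regulators of stress keratin genes 0 passed (median -0.10). Among them 3 had an unadjusted p under 0.05 in edgeR, beside 1.66% of all genes. They are the AP-1 genes Fos, Junb and Jun. Fos stood at 149.6 ± 42.3 CPM in ATR mD/mD and 747.7 ± 355 CPM in ATR WT (SD, n = 3 each), with a log2 fold change of -2.32 (SE 0.422) and an adjusted p of 0.685 in edgeR. Junb stood at 128.5, 141.5 and 169.6 CPM in ATR mD/mD 1, 2 and 3 and at 492.5, 407.1 and 251.6 CPM in ATR WT 1, 2 and 3. In both genes, and in Jun, every ATR mD/mD library lay below every ATR WT library. That order was shown by 2.58% of all genes and by 0 of the 5 keratins. The part of these AP-1 genes in the members' levels was not tested. Of 15 proliferation genes 0 passed (median 0.05). In each of the 3 libraries of high hair keratin level 12 were higher, beside 19.6% of all genes. Among the 12 was Mki67, a marker of dividing cells, with 111.6 ± 107 CPM in ATR mD/mD and 101.4 ± 38.8 CPM in ATR WT (SD, n = 3 each). Of 16 desmosome and keratin linker genes 0 passed, and Dsp, which ties keratin filaments to desmosomes, had a log2 fold change of 0.01 (SE 0.24).

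Markers of other cells in the skin are given beside these values. All 8 pigment cell markers had a negative log2 fold change, as 48% of all genes did, and none passed the threshold. In each of the 3 libraries of high hair keratin level 7 were higher, beside 19.6% of all genes. The other, Sox10, stood at 17.6, 20.9 and 23.6 CPM in ATR mD/mD 1, 2 and 3. It stood at 31.3, 43.8 and 35.0 CPM in ATR WT 1, 2 and 3, so the genotypes separated, as in 4.84% of all genes. Sox10 had an unadjusted p of 0.0033 and an adjusted p of 0.9999 (edgeR quasi-likelihood). The summed level of the 8 pigment cell markers ranged from 154.6 to 881.7 CPM in ATR mD/mD and from 212.8 to 883.7 CPM in ATR WT. The 5 T cell markers summed to between 35.3 and 70.3 CPM in ATR mD/mD and between 49.1 and 71.3 CPM in ATR WT. In each of the 3 libraries of high hair keratin level 4 of these 5 were lower, beside 17.1% of all genes. The genotypes separated in 1 of the 5, beside 4.84% of all genes. This was Cd4, at 4.11 ± 0.168 CPM in ATR mD/mD and 8.62 ± 2.27 CPM in ATR WT (SD, n = 3 each). Its unadjusted p was 0.0046 and its adjusted p 0.9999 (edgeR quasi-likelihood). The 7 macrophage markers summed to between 642.1 and 1066 CPM in ATR mD/mD and between 533.6 and 1142 CPM in ATR WT. The 5 adipocyte markers summed to between 2181 and 3574 CPM in ATR mD/mD and between 1984 and 2693 CPM in ATR WT. None of these markers was at 0, and their part in the members' levels was not tested.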

How the data were processed

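RNA of skin from 3 ATR mD/mD and 3 ATR WT samples was measured. Per the labels' protocols, mRNA was selected with oligo dT beads and the TruSeq RNA v2 kit was used, which does not mark strand. The submitters' processing notes name FastQC, TopHat2 2.0.12, edgeR and mm10. The sources used here do not name the read length, counter or annotation. Whole-number counts per gene and library, not normalized, were deposited. Beside them, per the file headers, stand the authors' own p-value, with its adjusted form, their log2 fold change and a mean level in log2 CPM. The 2 of 14486 rows that name no gene (4.93% to 5.73% of a library's counts) were left out.

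Counts were scaled with TMM and tested with edgeR 4.0.16 (quasi-likelihood, R 4.3.3, filterByExpr, no covariate), with p-values adjusted by Benjamini-Hochberg over 14484 genes. The SE of a fold change is its size divided by the square root of the F statistic. The test was required to recover known changes only in simulated data with little spread between libraries. That check does not cover genes that vary as widely as most of the members. Alternatives used DESeq2 1.42.0, limma 3.58.1, other scaling and filters, a replicate block, the hair keratin level as a covariate, and 5 of the 6 libraries. A combined setting (that covariate without ATR WT 1), edgeR's exact test, the rows without a gene, the gap rule and the ratios between members were added after the data were examined.

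Positions and exon lengths come from GENCODE M21 and the promoter from RefSeq, both of the mm10 build. The members and lists were chosen with earlier results of these data known. Named genes are the members, genes of each list with the smallest p or highest mean CPM, and for each member the 3 genes nearest in profile with a mean of at least 1 log2 CPM. Jun and Krt14, and Krt8, Krt18, Krt20, Krt23, Krt78, Dsg3 and Dsc2 in the closing observations, fall outside that rule and were picked once their values had been seen. With deep libraries, counting error is small except for Krt6b in ATR WT 1, with 6 counts.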

Additional observations from a re-analysis of the deposited data

How the results depend on the processing

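No member passed an adjusted p under 0.05 in any of 16 alternatives (80 values, 12 of them reversed in sign, lowest adjusted p = 0.5743 for Krt6b with the covariate and without ATR WT 1, edgeR quasi-likelihood). The scaling, the filters, DESeq2, limma-voom, the exact test and the rows without a gene turned no sign. With the hair keratin level as a covariate the values of Krt6a, Krt16 and Krt17 reversed to 0.39, 0.00078 and 0.25. With the covariate and without ATR WT 1, Krt6a had 0.13 and Krt17 had 0.61. With 1 library left out, the log2 fold change ran from -3.08 to 0.69 for Krt6a, -2.01 to 1.61 for Krt6b, -2.96 to 0.79 for Krt16, -0.93 to 0.29 for Krt17 and -4.455 to -0.34 for Krt75, the low end always without ATR mD/mD 3. The cause was not tested. Without ATR mD/mD 3 the unadjusted p was 0.048 for Krt6a, 0.044 for Krt16, 0.027 for Krt17 and 0.0195 for Krt75 (edgeR quasi-likelihood). The adjusted p of each was 0.7079, and Krt6b had an unadjusted p of 0.26 by the same test. The number of genes called, 7 with all libraries, ran from 4 to 10 with 1 left out. It was 39 with DESeq2, 25 with the exact test and 11 with the covariate and without ATR WT 1. Jumps, counted as pairs of a member and a library, numbered 25 at 1 log2 unit, 19 at 2 log2 units and 1 by the gap rule.

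The replicate numbers were not shown to pair the samples: deviations from the group means of same-numbered samples correlated at 0.63, -0.51 and 0.57. With the replicate number as a block, 6 genes were called. Krt6a, Krt6b, Krt16, Krt17 and Krt75 had -0.95, 0.58, -1.05, -0.27 and -1.81, none past the threshold. The unadjusted p was 0.025 for Krt16, 0.077 for Krt6a, 0.080 for Krt75, 0.48 for Krt17 and 0.49 for Krt6b (edgeR quasi-likelihood).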

Other observations

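A list of other epithelial keratins had 12 measured genes, among them Krt15 and Krt79 of the outer root sheath, companion layer and infundibulum list. In each of the 3 libraries of high hair keratin level 3 of the 12 were higher (Krt8, Krt18 and Krt20), beside 19.6% of all genes. Krt15, Krt23 and Krt78 were lower in each of them, beside 17.1% of all genes. Krt18 and Krt8, the type I and type II keratins of simple epithelia, are usually scarce in skin. Krt18 stood at 0.372, 0.508 and 10.7 CPM in ATR mD/mD 1, 2 and 3 and at 0.276, 4.715 and 4.32 CPM in ATR WT 1, 2 and 3. Krt8 stood at 3.83, 2.49 and 11.9 CPM in ATR mD/mD 1, 2 and 3 and at 3.01, 7.89 and 7.43 CPM in ATR WT 1, 2 and 3. ATR mD/mD 3 was highest in both, and neither passed the genotype test, with log2 fold changes of 0.31 (SE 1.435) and -0.01 (SE 0.653). Of the 12 keratins 0 passed (median log2 fold change 0.11). Krt24 had 19.9 ± 2.67 CPM in ATR mD/mD and 13.45 ± 4.02 CPM in ATR WT (SD, n = 3 each).

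ATR WT 3, the library with the most Krt6a, Krt16 and Krt75, also had the most of 8 of the 16 desmosome and linker genes. Dsg3, a desmosomal cadherin of the deeper epidermis and the outer root sheath, stood at 16.8, 26.1 and 26.3 CPM in ATR mD/mD 1, 2 and 3 and at 10.3, 20.8 and 67.1 CPM in ATR WT 1, 2 and 3. Dsc2, a second desmosomal cadherin, stood at 8.49, 8.76 and 26.2 CPM in ATR mD/mD 1, 2 and 3 and at 6.07, 18.1 and 41.9 CPM in ATR WT 1, 2 and 3. Over all genes, 3130 of 14484 were highest in ATR WT 3.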
